A study of Drosophila melanogaster with 2 samples.

Results

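The EGF receptor and Ras pathway genes described here are 10 named genes of Drosophila melanogaster: Egfr, aop, pnt, Raf, sty, aos, rho, spi, vn and kek1. They were chosen by pathway and selected on the peaks they carried in an earlier look at these lists, out of 13968 protein-coding genes. Each gene was given every peak summit that lay in its body, or whose nearest protein-coding transcription start site (TSS) was one of its own and at most 10 kb away. By that rule 58 of the 5327 peaks that the authors kept by irreproducible discovery rate (IDR), which scores the repeatability of a peak across replicates, belonged to these genes. Every IDR peak had a higher signal with both replicates pooled (105.954 or more) than any pooled region outside the list (105.947 or less). The list thus holds the 5327 strongest pooled regions, and a place in it does not show that a peak repeated in each replicate. The summit positions and signals that follow were used by the rule, so they are given as a description with no test.

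The peaks come from ChIP-seq, the sequencing of DNA that precipitates with a chromatin protein, here fd59A, a transcription factor with a forkhead domain. The fly line stably carried fd59A with a GFP tag (eGFP) at its C-terminal end, and an antibody against GFP was used for the precipitation. Both samples, biological replicates 2 and 3, came from that 1 line as whole prepupae of mixed sex, and form 1 group. The labels give an age of 24 day, which is longer than a fly takes to reach the prepupal stage, so it is printed as labelled only. The authors called the peaks with a control, but no control library is analysed here, so the signal at a site could not be set against it, and whole animals do not show in which cells a site was bound. No source used here says whether the flies also made untagged fd59A.

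The EGF receptor is a receptor tyrosine kinase that is activated by secreted ligands. It turns on the small GTPase Ras, which activates the kinase Raf and, through it, the kinases MEK and ERK. ERK acts in the nucleus on ETS-family factors, releasing genes from the repressor encoded by aop (also called Yan) and switching on the activator encoded by pnt. Several targets of the pathway encode its own inhibitors. In the fly it is best known for patterning the eye and the wing veins.

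The sequence at the strongest summit of each gene but Egfr was read from the RefSeq dm6 genome, together with the other summits of these genes that ranked among the 500 strongest IDR peaks, except 1 in the 5' UTR of Raf. They are shown because they are the DNA under the highest signal at this pathway. Each runs from 50 bases before the summit to 50 after it, on the plus strand of the genome. Capitals mark TAAACA (the forkhead core), GATAA (a site of the zinc-finger factors such as pannier), TAATTA (a homeodomain site), GAGAG (the site of GAGA factor) or CCGGAA (an ETS core), on either strand, so a motif may appear as its reverse complement. Of the 11 sequences, 3 held the forkhead core and 4 held none of the 5 motifs, while 9 had an unbroken run of A and T of 8 bases or more. Over all 58 summits such a run was present at 62.1%, and over all IDR peaks at 77.4%. Both spi sequences and the second Raf sequence lie at start sites, the kek1 sequence is intergenic, and the others are intronic.
spi chr2L:19575695-19575795: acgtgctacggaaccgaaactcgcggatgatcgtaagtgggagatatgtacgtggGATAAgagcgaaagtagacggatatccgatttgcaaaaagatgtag
spi chr2L:19572907-19573007: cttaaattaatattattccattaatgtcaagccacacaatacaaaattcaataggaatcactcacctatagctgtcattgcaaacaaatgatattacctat
vn chr3L:5834406-5834506: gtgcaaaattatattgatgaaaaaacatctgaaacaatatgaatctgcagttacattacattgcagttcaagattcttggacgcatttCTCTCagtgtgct
rho chr3L:1464516-1464616: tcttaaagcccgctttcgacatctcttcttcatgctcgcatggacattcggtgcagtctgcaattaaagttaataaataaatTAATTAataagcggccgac
Raf chrX:2300655-2300755: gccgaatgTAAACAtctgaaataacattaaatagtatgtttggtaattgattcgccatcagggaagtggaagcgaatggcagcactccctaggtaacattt
Raf chrX:2322022-2322122: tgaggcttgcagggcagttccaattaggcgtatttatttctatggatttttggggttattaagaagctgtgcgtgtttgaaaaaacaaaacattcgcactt
pnt chr3R:23326444-23326544: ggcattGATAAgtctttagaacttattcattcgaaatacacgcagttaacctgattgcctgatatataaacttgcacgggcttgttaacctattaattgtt
aop chr2L:2163602-2163702: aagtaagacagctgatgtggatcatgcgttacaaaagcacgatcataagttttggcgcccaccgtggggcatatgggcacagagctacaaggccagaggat
aos chr3L:16480504-16480604: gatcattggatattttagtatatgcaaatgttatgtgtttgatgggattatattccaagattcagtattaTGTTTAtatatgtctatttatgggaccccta
sty chr3L:3418947-3419047: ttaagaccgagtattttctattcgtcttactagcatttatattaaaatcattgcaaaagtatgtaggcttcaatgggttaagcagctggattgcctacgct
kek1 chr2L:12829398-12829498: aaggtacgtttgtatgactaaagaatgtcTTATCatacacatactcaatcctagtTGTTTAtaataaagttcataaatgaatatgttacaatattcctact

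The forkhead core lay 7 bp from the summit at kek1, 22 bp away at aos and 40 bp away at Raf. At the strongest aop summit, by contrast, GC content was 50.5%, no run of 8 A or T bases was present and no motif was found. A match to these letters is a description and not evidence of a bound site.

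Summits were unevenly spread over the pathway. All 10 genes had at least 1 IDR summit, while 20.6% of all protein-coding genes did. This count is read no further, since the list was chosen with the peaks known. The 7 genes spi, vn, Egfr, Raf, pnt, aop and aos had 5 or more each and 55 of the 58 in all. Of all protein-coding genes 1.51% had 5 or more. That count is read no further either, for the same reason, and it takes no account of gene length. The remaining rho, sty and kek1 had 1 each. The 58 summits formed 53 separate regions, because 5 pairs of peaks, at spi, Egfr, Raf and aop, overlapped with summits 199 to 218 bp apart.

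The summits lay mainly in introns. Introns held 44 of the 58, promoters (at most 500 bp from a start site, of noncoding transcripts too) held 9, and 3 were intergenic. The other 2 lay in the 5' UTR of Raf and in an exon of a noncoding RNA next to aop. None lay in a coding exon or a 3' UTR, and a count of 0 allows a share of up to 5.17%. Those classes held only 0.113% and 0.544% of all IDR peaks, so a count of 0 is near what those shares would give. Over all IDR peaks the intron share was 46.1%, the promoter share 32.5% and the intergenic share 19.5%. Counting every summit inside a gene body favours introns, however, so the shares cannot be compared directly. Of the 58, 14 were within 1 kb of a start site of their own gene and 23 were more than 5 kb from one.

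**Figure D1:**
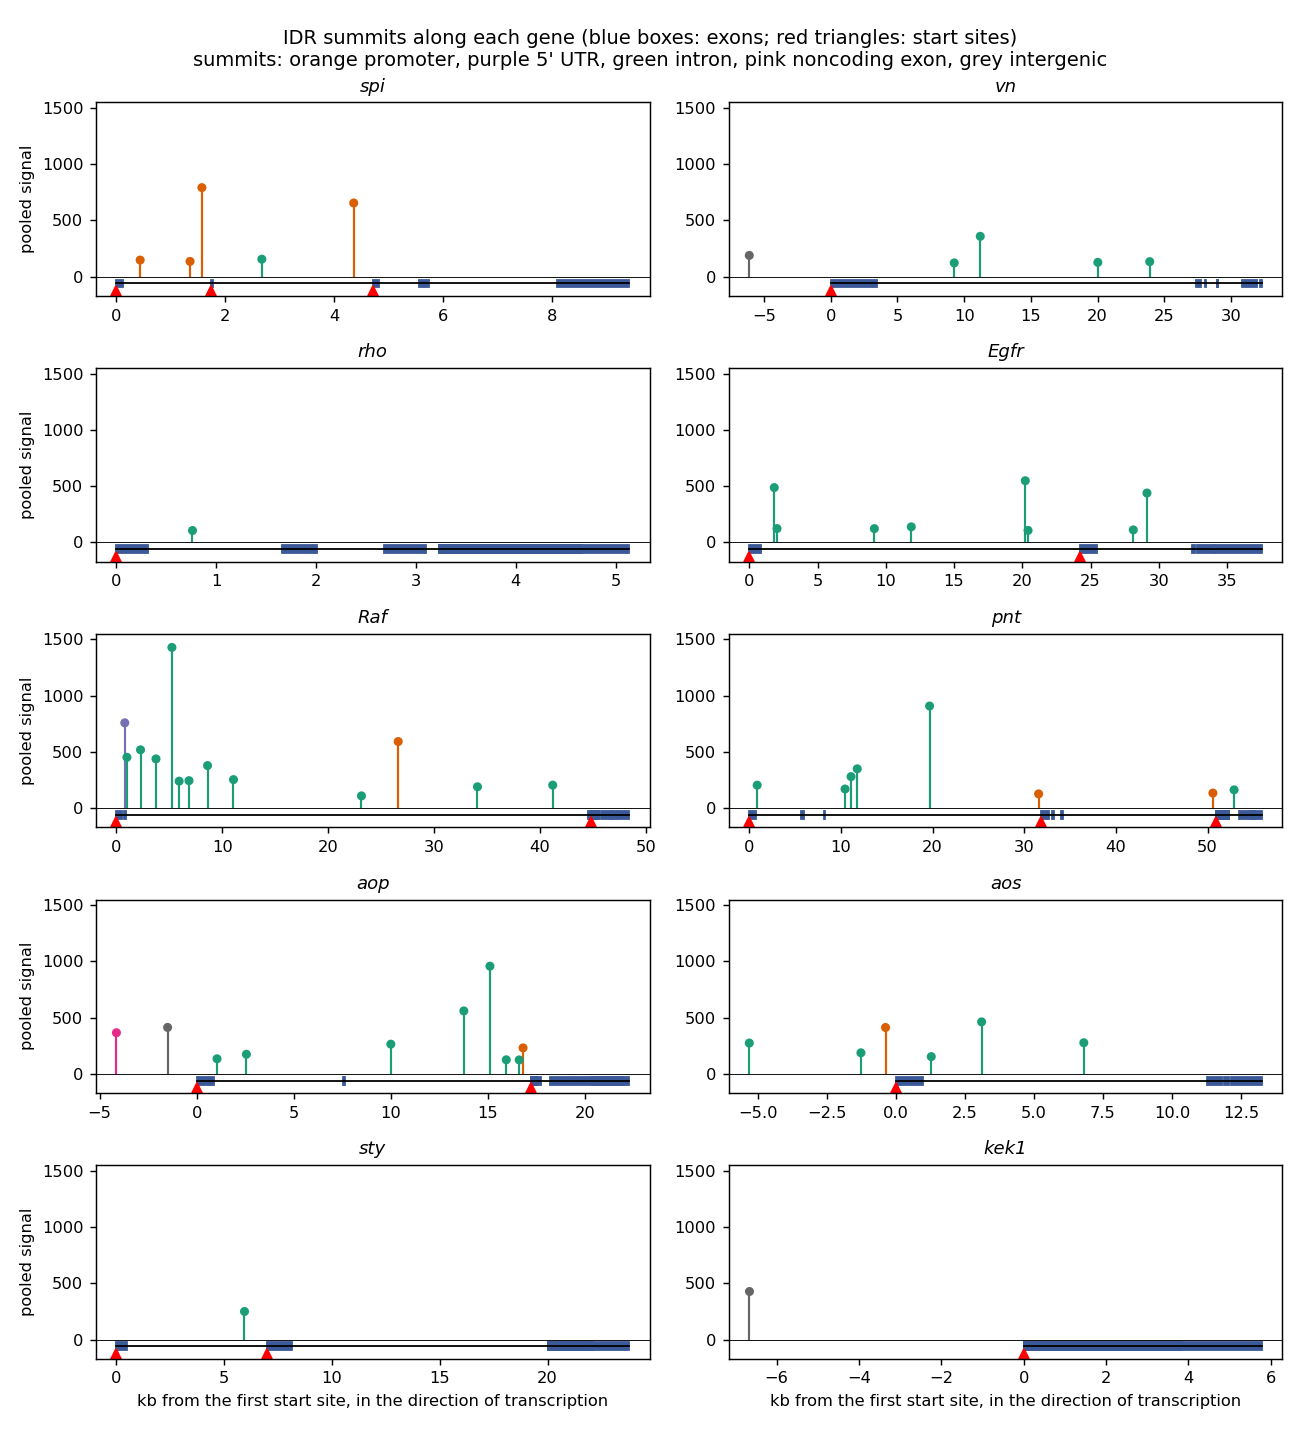
Pooled signal (vertical axis, authors' units) of each IDR summit against its distance in kb from the gene's first start site, in the direction of transcription (horizontal axis), for the 10 genes. Bars are single summits coloured by place. Raf carries 13 summits, 9 of them within 11053 bp of its first start site, while rho, sty and kek1 carry 1 each.

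The ligand gene spi, which encodes the membrane-bound TGF-alpha-like ligand Spitz, carried 5 IDR summits over 9416 bp (2L, 19567900 to 19577315, minus strand). The strongest, 158 bp upstream of the middle of its 3 start sites, had a pooled signal of 792 and ranked 230 of 5327. Its signal was 382 in replicate 2 (rank 174 in that list) and 410 in replicate 3 (rank 305). The next, 347 bp upstream of the start site farthest downstream, had a pooled signal of 655 (rank 388), with 297 and 354 in replicates 2 and 3. Both summits therefore sat just upstream of internal start sites, inside the first intron of the longest transcript. The other 3 were much weaker, with pooled signals of 136 to 156 against the median of 193 over all IDR peaks. The weakest shared its peak interval with the strongest, and its nearest replicate 3 summit, 192 bp away, was the one matched to the strongest.

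The neuregulin-like ligand gene vn (vein) differed from spi in having no promoter summit. It had 5 IDR summits (3L, 5813338 to 5845664, minus strand), 4 in its first intron and 1 lying 6109 bp upstream of its only start site. The strongest lay 11208 bp inside the gene, with a pooled signal of 359 (rank 1166), a replicate 2 signal of 159 and a replicate 3 signal of 186. The upstream summit had a pooled signal of 189, and the other 3 had 123 to 134. Thus 1 of the 5 exceeded the median of all IDR peaks, and all 5 were found in both replicates. Of the 4 intron summits, 2 were nearer to the start site of the neighbouring gene mad2 than to that of vn.

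At rho, which encodes the intramembrane protease Rhomboid that cuts Spitz into its active form, the evidence was weakest. Its only IDR summit lay 755 bp downstream of the start site, in the first intron (3L, 1464354 to 1464777), with a pooled signal of 111 and rank 5081. Replicate 3 listed it with a signal of 76.2 and rank 4171. Replicate 2 listed no summit within 100 bp, the nearest being 137 bp away. The whole rho gene lies inside Ptp61F, a phosphatase gene on the opposite strand, so a region here belongs to the bodies of both genes.

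**Figure D2:**
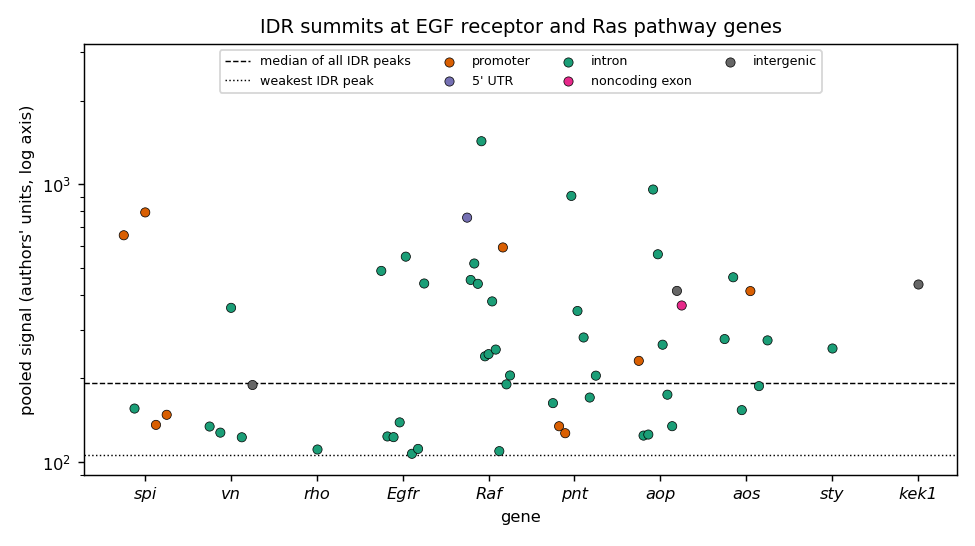
Pooled signal (log axis, authors' units) of all 58 IDR summits by gene, coloured by place. Dashed and dotted lines mark the median (193) and the weakest (106) of all IDR peaks; the strongest summit is at Raf (1429), and the only rho summit sits close to the dotted line.

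The receptor gene Egfr (2R, 21522420 to 21559977, plus strand) held 8 IDR summits, every one in the first intron of its longest transcript. That intron runs past an internal start site and holds 4 small protein-coding genes on the opposite strand: CG30286, CG30287, CG33226 and CG30283. The strongest summit lay 4003 bp upstream of the internal start site, with a pooled signal of 549 (rank 552), a replicate 2 signal of 222 and a replicate 3 signal of 314. The next lay 1830 bp downstream of the first start site, with a pooled signal of 488, and here replicate 2 was the higher library with 276 against 205. The next, 4912 bp downstream of the internal start site, had a pooled signal of 439, with 167 in replicate 2 and 272 in replicate 3. These 3 ranked among the 1000 strongest IDR peaks. The other 5 had pooled signals of 107 to 139, close to the weakest IDR peak at 106. Of those 5, 1 had no replicate 3 summit within 100 bp, the nearest being 113 bp away. Of the 8 summits, 4, the strongest included, were nearer to the start site of CG30283 or CG30286 than to one of Egfr, and belong to Egfr by lying in its body.

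The kinase gene Raf carried more summits than any other gene of the list. Raf (X, 2295466 to 2343870, plus strand) is the MAP kinase kinase kinase that Ras activates. It had 13 IDR summits, each found in both replicates, and 14 of the 13968 protein-coding genes had 13 or more. Raf was chosen with its peaks known, so this place among all genes is a description only. Of the 13, 11 exceeded the median signal of all IDR peaks and 6 ranked among the 1000 strongest.

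The Raf summits were concentrated after its first start site. The 9 nearest to it lay 789 to 11053 bp downstream and made up 81.1% of the gene's summed pooled signal. The strongest summit of the pathway was among them, 5239 bp into the gene in intron 2 (pooled signal 1429, rank 45). It ranked 35 in replicate 2, with a signal of 658, and 47 in replicate 3, with 780. The 5' UTR summit 789 bp from the start site followed, with a pooled signal of 759 and with 329 and 438 in replicates 2 and 3. The others in this stretch had pooled signals of 240 to 519.

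The remaining 4 Raf summits lay 23136 to 41194 bp downstream of the first start site, among genes that are nested in the same intron. The strongest of them (pooled signal 593, rank 489) was within 500 bp of the start site of lncRNA:CR34052, a noncoding RNA on the opposite strand. The others had pooled signals of 109 to 205. All 4 were nearer to the start site of a nested protein-coding gene than to one of Raf: CG14050 for 2 of them, CG2854 for 1 and Ilp6, an insulin-like peptide gene, for 1. They belong to Raf by lying in its body and could equally be listed under those genes.

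**Figure D3:**
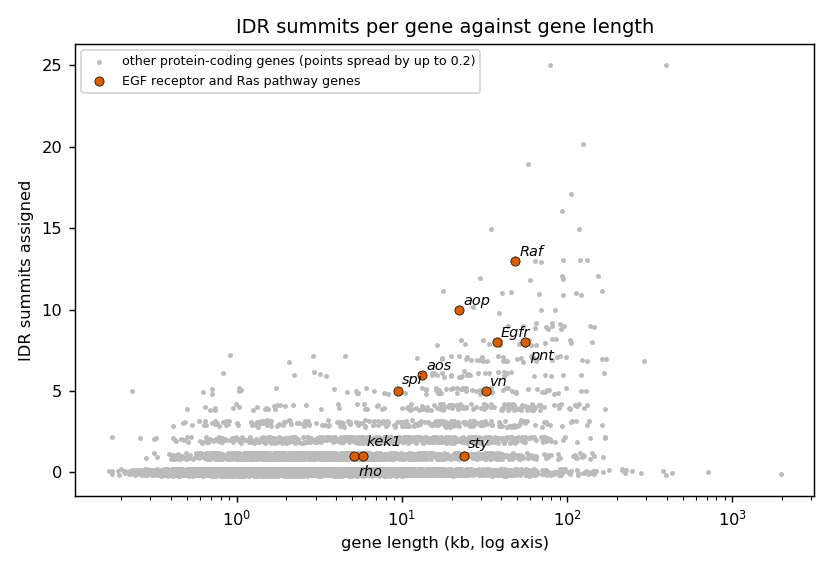
Number of IDR summits assigned (vertical axis) against gene length in kb (horizontal log axis) for 13968 protein-coding genes, with the 10 pathway genes in orange. Raf has 13 summits over 48.4 kb, aop 10 over 22.3 kb, aos 6 over 13.3 kb and spi 5 over 9.42 kb. The genes sty and vn, both over 20 kb long, have 1 and 5. Over all protein-coding genes of 20 kb or more the median is 1 summit. The 10 genes were chosen with their peaks known, and no count was adjusted for length.

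Both ETS factor genes that receive the signal in the nucleus were rich in summits. The activator gene pnt (3R, 23290231 to 23346167, minus strand) had 8, each seen in both replicates. The repressor gene aop (2L, 2156484 to 2178754, minus strand) had 10, although it is shorter than pnt, at 22271 against 55937 bp.

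The strongest pnt summit lay 12179 bp upstream of the middle of its 3 start sites, in the third intron of its longest transcript. It had a pooled signal of 908 (rank 156), a replicate 2 signal of 348 and a replicate 3 signal of 563. Another 3 summits formed a group 10449 to 11778 bp inside the gene in the same intron, with pooled signals of 171 to 350. Within that group the summit with a pooled signal of 350 had 244 in replicate 2 (rank 530) and 123 in replicate 3 (rank 2358), the lowest ratio of replicate 3 to replicate 2 among the 54 matched summits. The 2 promoter summits, 283 and 345 bp upstream of internal start sites, were weaker, at 127 and 135.

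At aop the strongest summits lay upstream of the internal start site, in intron 2. The strongest, 2125 bp upstream of it, had a pooled signal of 958 (rank 146), with 401 in replicate 2 and 548 in replicate 3, and ranks of 146 and 137. The next, 3469 bp upstream, had 560, with 227 and 314. These were followed by a pair before the first start site. An intergenic summit 1504 bp upstream had a pooled signal of 413, and a summit 4141 bp upstream, in an exon of lncRNA:CR43751, had 366. The other 6 aop summits ranged from 125 to 265, and 1 of them, at 175, had no replicate 3 summit within 100 bp, the nearest being 109 bp away.

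The 3 inhibitor genes differed in how many summits they had. The gene aos encodes Argos, a secreted protein that binds Spitz and keeps it from the receptor, and it had 6. It lies entirely inside CG33158, on the opposite strand (aos at 3L, 16470386 to 16483650). The strongest summit was 3096 bp into its first intron, with a pooled signal of 463 (rank 752), a replicate 2 signal of 182 and a replicate 3 signal of 275. A promoter summit 388 bp upstream of the start site followed with a pooled signal of 413 (rank 918). There replicate 3, at 299, far exceeded replicate 2, at 114, which was the highest such ratio among the 54 matched summits. The other 4 had pooled signals of 154 to 277. Of the 6 summits, 3 lay upstream of aos, within CG33158.

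The other inhibitor genes had 1 IDR summit each. The gene sty encodes Sprouty, an intracellular inhibitor of receptor tyrosine kinase signalling (3L, 3401153 to 3424935, minus strand). Its summit lay in an intron 1036 bp upstream of the internal start site, with a pooled signal of 258 (rank 1832), a replicate 2 signal of 132 and a replicate 3 signal of 129. The gene kek1 encodes Kekkon 1, a transmembrane protein that binds the receptor and inhibits it (2L, 12817000 to 12822787, minus strand). Its summit was intergenic, 6661 bp upstream of the start site, with a pooled signal of 436 (rank 832), a replicate 2 signal of 171 and a replicate 3 signal of 268. No IDR summit lay in the body of kek1, which makes it the only gene of the 10 that is in the list by distance alone.

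Most summits of the pathway were found in both replicates. Of the 58, 54 (93.1%, Wilson 95% interval 83.6 to 97.3, counting error only) had a summit within 100 bp in each single-library list, and the share was 92.7% over all IDR peaks. The 4 exceptions were the rho summit, absent from replicate 2, and 1 summit each of spi, Egfr and aop, absent from replicate 3. In each of these 4 the missing library had a summit within 192 bp. At spi, however, that was the replicate 3 summit already matched to the strongest spi summit, 26 bp from it. Of the 7 genes with a summit among the 1000 strongest IDR peaks, which 5.93% of protein-coding genes had, all had their strongest summit matched in both replicates. Those 7 were spi, Egfr, Raf, pnt, aop, aos and kek1. They were picked by a pooled signal that comes from the same libraries, so a match in both is close to given by that choice.

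The signals of the replicates rose together across the matched summits, with a Spearman rho of 0.90 over 54 summits and 0.81 over all 4938 matched IDR peaks. These are descriptions across peaks of the same libraries, which are not independent replicates. The lists are not on 1 scale: the ratio of replicate 3 to replicate 2 had a median of 1.33 over all matched IDR peaks, with 5% below 0.748 and 5% above 2.40. Its median over the pathway summits was 1.21. It was below 0.748 at 5 of them, 3 at Egfr and 2 at pnt, and above 2.40 at 1, the aos promoter. By gene, the median ratio ran from 0.925 at Egfr to 1.54 at aos among the genes with 5 or more summits.

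**Figure D4:**
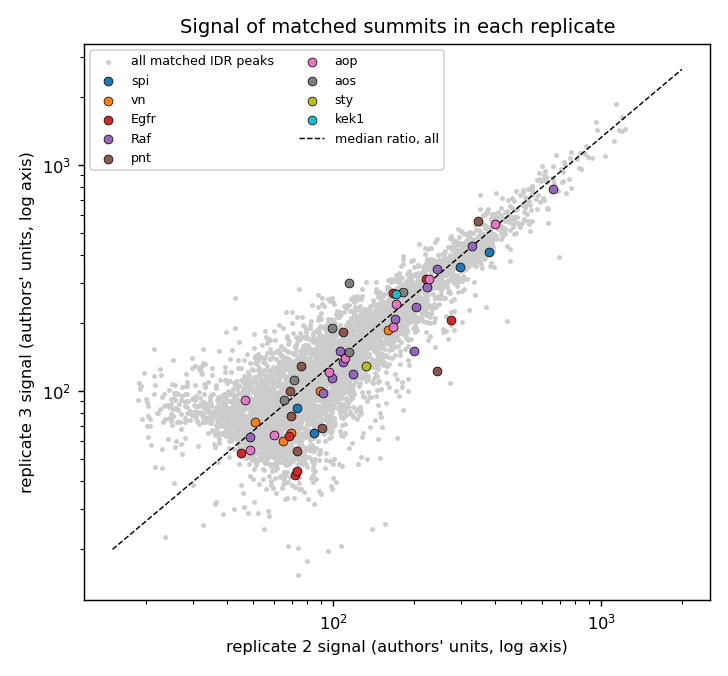
Signal in replicate 3 (vertical log axis) against replicate 2 (horizontal log axis), in the authors' units, for 54 matched pathway summits (coloured by gene) and all 4938 matched IDR peaks (grey). The dashed line is the median ratio of 1.33; most Egfr points lie below it, and 5 of the 6 aos points lie above it.

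Below the IDR threshold the same genes held further regions. The pooled list had 126 more regions at the 10 genes, from 3 at spi to 24 at pnt, and sty, with 1 IDR summit, had 19. Of the 126, 50 (39.7%) had a summit within 100 bp in both replicates, and of all 23881 pooled regions outside the IDR list 30.9% did. At the threshold itself, the weakest pathway summit inside the IDR list had a pooled signal of 107 (Egfr) and the strongest outside had 105 (vn). For sty, the strongest such region lay at a promoter, 3417972, with a pooled signal of 100.4, a replicate 2 rank of 7983 and a replicate 3 rank of 5362. For rho it lay at 1457471 with a pooled signal of 75.1, and for kek1 at 12824594 with 73.9.

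Each replicate's own list added few strong regions. Among regions more than 100 bp from any IDR summit, the highest-ranked in replicate 3 was at aos (signal 95.2, rank 3222), and in replicate 2 it was at Raf (signal 69.4, rank 3450). Both lay in introns, less than 200 bp from an IDR summit of the same gene. Taken alone, replicate 2 listed 6 regions at rho and 10 at kek1, and replicate 3 listed 9 and 7.

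The DNA under the summits was AT-rich, as it was at IDR peaks in general. At the 58 summits, mean GC content in the 50 bp to either side was 37.6% ± 8.11 (SD), against 46.6% ± 6.63 in windows of the same size 250 bp to either side. It was lower than in its own flanks at 45 of the 58 summits. Over all IDR peaks the values were 33.4% ± 8.40 and 45.5% ± 6.78, with 85.0% of peaks lower than their flanks. By gene the mean was lowest at kek1 (26.7%, 1 summit) and aos (30.4%, 6 summits) and highest at Raf (41.9%, 13 summits). Summits of 1 gene are neighbours in the genome and are not independent of each other, and signal showed little relation to GC content across the 58 (Spearman rho -0.08, a description).

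**Figure D5:**
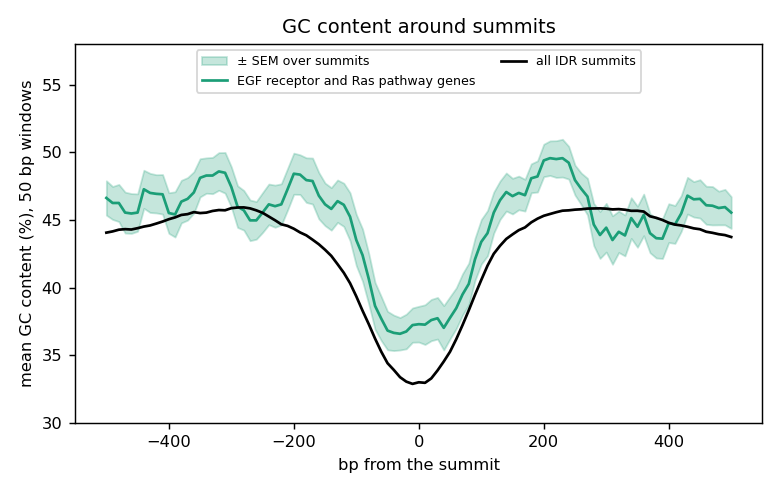
Mean GC content (%) in 50 bp windows against distance from the summit (bp) for the 58 pathway summits (green, shaded ± SEM over summits) and all 5327 IDR summits (black). Both curves dip at the summit, and the dip is less deep at the pathway genes. The shading treats neighbouring and overlapping summits of the same gene as independent, so it is too narrow to judge that difference, which was not tested.

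Few of the summits held a forkhead core. TAAACA, searched on both strands within 50 bp of the summit, was at 7 of the 58 (12.1%, Wilson 95% interval 5.97 to 22.9) and at 12.7% of all IDR summits. Those 7 were 3 at aop and 1 each at Raf, pnt, aos and kek1. GAGAG was at 12 (20.7%, interval 12.3 to 32.8) against 10.2% of all, with 3 each at Raf and pnt. GATAA was at 10 (17.2%) against 23.0%, and TAATTA at 3 (5.17%) against 9.89%. The ETS core CCGGAA was at 1 aop summit (1.72%) against 1.61%. In all, 27 of the 58 held at least 1 of the 5 motifs, and overlapping matches of different motifs each counted. That count has no share over all IDR summits beside it, so it is read no further. No test was made of these shares. In windows 250 bp to 1 side of all IDR summits, TAAACA was at 8.65%, GATAA at 15.2% and TAATTA at 4.37%. In the same windows GAGAG was at 17.8% and CCGGAA at 2.38%. The intervals treat neighbouring summits of 1 gene as independent.

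Of 27 further pathway genes, 11 (40.7%) had at least 1, and 20.6% of all protein-coding genes did. Neither of the kinases downstream of Raf had one, Dsor1 (the MEK) or rl (the ERK, 54.5 kb long), and neither did Ras85D, ksr, cnk or ave. With 6 genes, 5 of them short, a count of 0 is near what the share over all genes would give, and the grouping by role was made with the counts known. Of 6 adaptors and related signalling proteins at the receptor, drk, which encodes the Grb2 adaptor (strongest pooled signal 258), and csw, a phosphatase gene (273), had 1 summit each.

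Of 6 ligand and ligand-processing genes, 4 had a summit: S, which encodes Star, the Spitz cargo receptor (5 summits, strongest 482), the rhomboid protease genes ru (5 summits, 195) and stet (1, 213), and the ligand gene Krn (1, 108). Of 7 inhibitor genes, 3 had one: Gap1, a Ras GTPase-activating protein gene (3, 527), Mkp3, an ERK phosphatase gene (5, 419), and ed, which encodes the adhesion protein Echinoid (10, 263). Both nuclear regulator genes had summits. These were edl, which encodes a modulator of the aop and pnt proteins (4 summits, strongest 1106, rank 88), and cic, which encodes a repressor that the pathway inactivates (8 summits, 664). All of these summits named by value were matched in both replicates.

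Among 6 other receptor tyrosine kinase genes that act through Ras, 3 had summits: Pvr, the PDGF- and VEGF-receptor relative (2, strongest 467), htl, an FGF receptor gene (2, 251), and sev (1, 170). None was assigned to btl, tor or Alk. Gene length moved with these counts. The 11 pathway genes with a summit had a median length of 16.8 kb and the 16 without one 5.94 kb, and of the 1020 protein-coding genes of 20 kb or more 59.6% had a summit. Of the 10 genes described here 6 were that long. The part of length in the counts was not tested.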

How the data were processed

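Per the labels, chromatin of whole prepupae was sheared by sonication to 200 to 800 bp. The authors deposited narrowPeak lists on dm6 for each replicate (28127 and 30000 regions), for both pooled (29208) and after IDR (5327), called with a control per the file descriptions. No source used here names the caller, the IDR threshold or the scaling of the signal. The deposited signal of a peak (column 7) is the authors' own score and was used only to describe and rank peaks within a list. The replicate 3 list stops at exactly 30000 regions. The lists hold no read totals, so depth is unknown. The dm3 lists were not used here.

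Genes, transcripts and start sites came from Ensembl release 115 (BDGP6), and sequence from the RefSeq dm6 assembly. Promoter took precedence over UTR and coding exon, and these over intron and noncoding exon. A summit was matched to a replicate's nearest summit within 100 bp. Gap1 was found under its current symbol RasGAP1. The members and lists were chosen with earlier results of these data known, and the roles were grouped with values seen. All 10 members are named, and of the further lists each gene with an IDR summit. No tests were made. Assignment and matching were tested on simulated data. Alternatives varied gene assignment, peak number, match distance and window, and left out each replicate. Python 3.11.15, numpy 2.4.6, pandas 2.3.3, scipy 1.17.1 and matplotlib 3.10.9 were used.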

Additional observations from a re-analysis of the deposited data

How the results depend on the processing

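The number of genes with a summit stayed between 7 and 10 under every alternative except summits nearest to a start site within 1 kb, where 6 genes and 14 summits were left. The number of summits, 58 by the main rule, was 51 in gene bodies alone and 42 by nearest start site alone, and fell to 33 in the stronger 50% of the IDR peaks and to 18 among the 1000 strongest, by the construction of those sets. Leaving out a replicate, by taking as many of the strongest regions of the other, gave 9 to 10 genes (rho had none without replicate 3), 55 to 61 summits and, by the ranks in the other list of the IDR summits matched there, a median rank of 1932 to 2205, against 2008. The share of summits matched in both replicates was 81.0% within 50 bp, 100% within 200 bp and 100% by any overlap of peak intervals. It was 81.0% with only the strongest regions of each replicate, where all IDR peaks gave 74.7%. No share over all IDR peaks is given for the other settings. A limit of 200 bp or interval overlap lets 1 replicate summit match both summits of an overlapping pair, as at spi. Those shares of 100% are therefore partly built in. In windows of 25 and 100 bp to either side, TAAACA was at 8.62% and 22.4% (6.59% and 23.6% of all IDR summits), GATAA at 8.62% and 29.3% (12.3% and 39.4%), TAATTA at 1.72% and 13.8% (4.94% and 17.0%), GAGAG at 10.3% and 43.1% (5.03% and 22.6%) and CCGGAA at 0% and 1.72% (0.807% and 3.21%). Wider windows hold more letters by construction. No paired analysis was possible because both samples form 1 group.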
